A study of Mus musculus with 2 samples.

Results

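The interleukin-1 (IL-1) family ligands and receptors described here are 10 genes: the cytokines Il1a, Il1b, Il18 and Il33, the antagonist Il1rn, and the receptor genes Il1r1, Il1r2, Il1rap, Il1rl1 and Il18rap. They were chosen by name, from 20143 genes that array probes name through RefSeq accessions, and all 10 had at least 1 probe, 13 probes in all. The samples were 2 cultures of C57BL/6 mouse bone marrow cells, each grown over 4 days in 5% FBS medium. The GM-CSF ONLY culture received GM-CSF at 40 ng/ml, which drives growth of granulocytes and macrophages, and the GM-CSF + IL-6 culture received the same plus IL-6 at 40 ng/ml, a cytokine of inflammation whose receptor activates STAT3. The labels call the cells induced in both cultures myeloid-derived suppressor cells, immature myeloid cells that restrain T cells. How many animals gave the marrow, and their age, are not given in the sources used here, and the cultures were not sorted.

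IL-1 alpha and IL-1 beta bind to the receptor IL1R1, which recruits the shared co-receptor IL1RAP and signals through MYD88 to NF-kB. The antagonist encoded by Il1rn occupies the same receptor without signalling, and IL1R2 is a decoy that binds IL-1 but lacks a signalling domain. IL-33 signals through ST2, the product of Il1rl1, which is prominent on mast cells, basophils and type 2 lymphocytes. IL-18 acts through a receptor whose co-receptor is encoded by Il18rap. Neutrophils and monocytes are major sources of IL-1 beta, which is made as a precursor and cut by caspase-1 or by neutrophil proteases.

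Each culture was hybridised to 1 Agilent array, so the differences below have no replicate check and come without p-values. Both arrays lay on 1 slide and were read in 1 scan, no spot was saturated, and 57.9% of probes with IL-6 and 59.1% without it were well above background. Signals are Cy3 intensities scaled so that the 75th percentile of both arrays is 517, and a log2 ratio is the GM-CSF + IL-6 value minus the GM-CSF ONLY value. The error after ± is a technical SD taken from probes that were printed several times and reduced by averaging where a probe has several spots. Labelling and culture add error that it does not hold, and precision is limited by having 1 array per culture. The extraction software also gives an error for each spot, which adds to about 0.20 on the log2 scale for a bright probe and is named software error below.

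All 12 neutrophil marker genes were measured, with S100a9 at 470325 with IL-6 and 427030 without it, and so were 10 of 10 monocyte and macrophage markers that had a probe. Their median log2 ratios were -0.02 and -0.09. Neutrophil markers ran from -0.25 for Mmp8 to 0.14 for S100a9, 7 lower and 5 higher with IL-6. Monocyte and macrophage markers ran from -0.58 for Cx3cr1 to 0.27 for Mrc1, 7 lower and 3 higher. Among all measured genes 56.2% were lower. The higher neutrophil markers besides S100a9 were Csf3r (0.11), Elane (0.09), S100a8 (0.09) and Mpo (0.08). The lower ones besides Mmp8 were Cxcr2 (-0.20), Camp (-0.18), Mmp9 (-0.12), Ltf (-0.05), Retnlg (-0.03) and Ngp (-0.01). The lists were not split by maturity, and the part of mature and immature stages in these values was not tested.

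The upstream sequences of 3 members are shown because Il1a and Il1b are ligand genes close to each other on chromosome 2 whose log2 ratios had opposite signs, and because Il1r2, the gene of the decoy receptor, held the only STAT match of the family in these windows. Each is the 250 bases before the start site listed by RefSeq, build GRCm38.p6, with the motif matches in capitals. The windows are chr2:129309973-129310222 on the minus strand for Il1a, chr2:129371140-129371389 on the minus strand for Il1b, and chr1:40085843-40086092 on the plus strand for Il1r2.
Il1a: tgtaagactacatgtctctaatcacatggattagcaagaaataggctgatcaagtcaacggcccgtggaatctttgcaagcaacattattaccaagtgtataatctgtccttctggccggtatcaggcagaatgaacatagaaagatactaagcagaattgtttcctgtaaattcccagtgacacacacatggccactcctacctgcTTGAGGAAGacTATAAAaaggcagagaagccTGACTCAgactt
Il1b: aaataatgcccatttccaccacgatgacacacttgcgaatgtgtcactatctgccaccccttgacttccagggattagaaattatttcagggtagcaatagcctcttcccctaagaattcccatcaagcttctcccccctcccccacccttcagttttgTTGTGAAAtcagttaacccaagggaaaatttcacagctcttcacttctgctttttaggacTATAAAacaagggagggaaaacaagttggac
Il1r2: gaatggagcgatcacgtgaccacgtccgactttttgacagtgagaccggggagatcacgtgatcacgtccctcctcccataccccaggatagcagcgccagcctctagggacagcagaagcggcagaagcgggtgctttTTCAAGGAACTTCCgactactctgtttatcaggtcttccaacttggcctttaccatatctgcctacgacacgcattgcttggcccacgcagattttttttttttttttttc

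The motifs searched on both strands were GGANNTTCC for NF-kB, TTNNGNAA for C/EBP, TTCNNNGAA for STAT, GAAANNGAA for the interferon-stimulated response element, TGANTCA for AP-1, GAGGAAG for PU.1 and TATAAA for the TATA box. The Il1a capitals are a C/EBP match at -43 that overlaps with a PU.1 match at -41, a TATA box at -32 and an AP-1 match at -12, counted from the start site. In Il1b they are a C/EBP match at -91 and a TATA box at -31, and in Il1r2 a STAT match at -111 that overlaps with an NF-kB match at -106. The 10 members had 15 listed start sites. C/EBP letters were in 11 of these 15 windows, in 7 members, against 36.8% of all 32851 windows, where the pattern is short and common. Neighbouring windows of Il1rn overlap and share a C/EBP match, so the windows are not all separate sequence. STAT letters were in 1 of 15, against 7.02% of all windows, and AP-1 letters in 2, against 6.75%. PU.1 letters were in 2, against 10.6%. TATAAA letters were in 5, at positions from -203 to -29, against 12.4%. NF-kB letters were in 2 of 15, those of Il1r2 and Il18rap, against 3.59%, and the interferon pattern was in 0 of 15, against 7.13%. A match is only a run of letters, and a missing match covers these windows alone.

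The family differed little between the cultures. Of the 10 members, 9 were measured, which means well above background on both arrays, and 7 of the 9 were lower and 2 higher with IL-6. Among all 13843 measured genes 56.2% were lower and 43.8% higher. The median log2 ratio of the measured members was -0.09, from -0.26 for Il1r1 to 0.17 for Il1a, and that of all measured genes was -0.02, with an SD of 0.20. No measured member reached a log2 ratio of 0.32 in size, a difference that 3.55% of all measured genes passed downward and 4.17% upward. Only the dimmest of 3 Il1rl1 probes, which does not stand for the gene here, passed that size. None reached 2-fold, which 0.101% of measured genes passed downward and 0.282% upward. In bulk RNA of this kind, fewer cells of a type and less RNA per cell cannot be told apart.

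**Figure D1:**
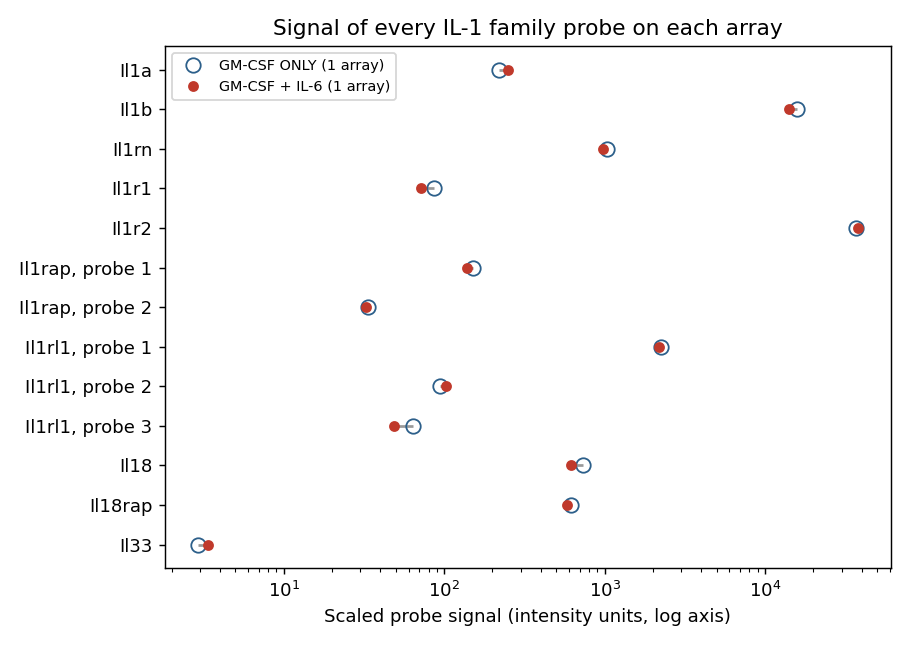
Scaled signal (log axis, intensity units) of each of the 13 probes, with an open circle for GM-CSF ONLY and a filled circle for GM-CSF + IL-6, 1 array each. The circles of a probe lie close together throughout, and Il33 sits at 3.37 and 2.92, not well above background; positions of different probes are not comparable as levels.

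Il1b, the gene of the secreted cytokine IL-1 beta, was the best measured member, since its probe was printed 10 times on each array. With IL-6 the 10 spots had scaled signals from 13889 to 14909 with a median of 14021. Without IL-6 they ran from 14968 to 16412 with a median of 16046. The spots of the 2 arrays did not overlap, although the gap between them was narrow. On the GM-CSF ONLY array 8 spots lay at 15999 or above and 2 spots, at 14968 and 14976, stood below the rest. The mean log2 ratio was -0.17 with an SD over spots of 0.04 (n = 10 spots of 1 hybridisation), or 1.13-fold lower with IL-6, and single spots gave -0.22 to -0.10. Of 266 repeat-printed probes measured on both arrays, 11.3% were likewise lower without any overlap of spots and 7.89% were higher, so separation of this kind was not rare between these arrays. The Il1b ratio lay within the software error of 0.20. It was beyond the SD of 0.12 over the genes in the brightest of 4 equal signal classes.

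**Figure D2:**
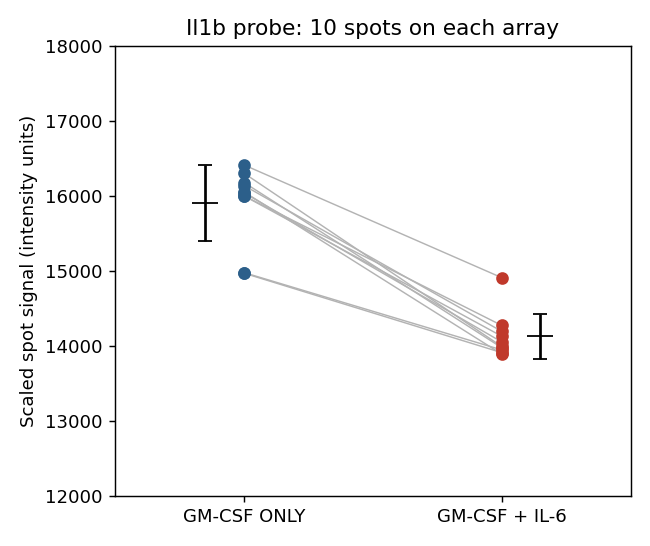
Scaled signal (intensity units, on an axis that does not start at 0) of the 10 Il1b spots on each array, with lines joining the same spot position and bars for the mean and SD over spots. The IL-6 spots end at 14909 and the GM-CSF ONLY spots begin at 14968.

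Il1a, the gene of IL-1 alpha, a ligand that also acts from the cell surface and the nucleus, had a signal of 249.5 with IL-6 and 221 without it. The log2 ratio of 0.17 ± 0.09 was the highest of the family, 1.13-fold, from 1 spot. This spot lay in row 6 of 384, near an edge of the array, where the median log2 ratio of the 95 other detected spots around it was 0.06, which leaves 0.12. Il1a and Il1b thus differed by 0.35 ± 0.09 on the log2 scale in technical SD, or ± 0.29 by the software error. Their opposite signs held in all 12 settings of the processing. The settings for outlier spots, filters on dim probes and the median over probes left both values unchanged, so they add no check.

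Il1rn, the gene of the receptor antagonist, had a signal of 974 with IL-6 and 1034 without it (log2 ratio -0.09 ± 0.06, and -0.05 with normexp, an alternative background correction). Its distance from Il1b was 0.08 on the log2 scale, with Il1b the lower (difference -0.08 ± 0.06, technical SD), so agonist and antagonist were apart by little more than their spot error. The Il1rn value rests on 1 spot of 1 probe, and which transcripts of the gene this probe reads was not analysed here. Il18, a cytokine gene that many myeloid cells express before any stimulus, had a signal of 621 with IL-6 and 735 without it. This was 1.18-fold lower (log2 ratio -0.24 ± 0.06) and, with Il1r1, 1 of 2 members beyond the software error, which 17.6% of measured genes passed. The Il18 spot lay in the outermost column of the array, where 112 measured gene probes had a median log2 ratio of -0.07 and an SD of 0.19. Against the spots around it, with a median of -0.07, the ratio of Il18 was -0.17. Il33, the gene of a nuclear alarmin of stromal and epithelial cells, was not well above background on either array, with signals of 3.37 and 2.92, and no fold is given. Of 10 stromal marker genes 6 were measured, 3 lower and 3 higher with IL-6, where 56.2% of all measured genes were lower. The stromal median log2 ratio was 0.11 (-0.06 to 0.21 over the settings). Lepr, the brightest, was higher at 4894 against 4148 (log2 ratio 0.24 ± 0.04), with 0.65 on its other probe. Sparc, a matrix protein gene, was dim at 100.4 against 36.0 (1.48 ± 0.24), as was Col1a2 at 76.7 against 53.2 (0.53 ± 0.24). Vcam1 was lower at 1512 against 1945 (-0.36 ± 0.06), with -0.11 on its other probe. The dim Col1a1 and Pdgfrb had -0.13 ± 0.24 and -0.02 ± 0.24. Col3a1, Cxcl12, Dcn and Lum were not well above background on either array.

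The IL-1 receptor genes were similar between the cultures. Il1r2 had a signal of 37736 with IL-6 and 37159.7 without it, the smallest difference of the family (log2 ratio 0.02 ± 0.05), and its sign turned when the local median was subtracted (-0.01), while it was 0.08 with normexp. Il1r1, the signalling receptor, was dim, with 72.0 against 86.2, and its log2 ratio of -0.26 ± 0.24 was the lowest of the family. With normexp it was -0.13, and then Il18 at -0.20 and Il1b at -0.14 were lower. The ratio was only slightly larger than the spot error, and genes of the same signal class had an SD of 0.33. The difference between signalling receptor and decoy was -0.28 ± 0.24 on the log2 scale, Il1r1 minus Il1r2. Il1rap, the co-receptor, had a signal of 139 with IL-6 and 151 without it on the probe for NM_134103 (log2 ratio -0.12 ± 0.24), and 32.6 against 33.4 on the probe for NM_008364 (-0.03 ± 0.24). Both ratios were smaller than the spot error, and with normexp they were -0.05 and -0.09. The gene gives rise to membrane and soluble proteins, and which of them each probe reads was not analysed here.

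Il1rl1, which encodes the membrane receptor ST2 and a soluble decoy form, had 3 probes that did not point 1 way. The brightest, for NM_001025602, had a signal of 2173 with IL-6 and 2248 without it (log2 ratio -0.05 ± 0.05). A dimmer probe for the same transcript gave 49.0 against 63.6 (-0.38 ± 0.24), and the probe for NM_010743 gave 103 against 93.6 (0.14 ± 0.24). The bright probe was level within its error, and the dim probes lay on opposite sides of 0. Which form each of them reads was not analysed here. Mast cell and basophil markers share cells with ST2. With IL-6 they were higher in 9 of 10 measured genes, against 43.8% of all measured genes. Their median was 0.17 on the log2 scale, with a summed signal of 99151 against 91153. Hdc was lower, at 10010 against 11605 (log2 ratio -0.21 ± 0.05). Tpsb2 had the largest log2 ratio, 0.42, and -0.11 on its other probe. Cma1 was not well above background on either array, and the part of these cells in the Il1rl1 values was not tested. Il18rap, the IL-18 co-receptor gene, had a signal of 580.0 with IL-6 and 616 without it (log2 ratio -0.09 ± 0.06). Of 12 T and NK cell markers, 8 were measured, 6 lower and 2 higher with IL-6, where 56.2% of all measured genes were lower. The median log2 ratio of these markers was -0.15, while their summed signal, led by Nkg7, was higher at 10275 against 9612. Cd247, Ncr1, Klrb1c and Eomes were not well above background on either array, and the part of T and NK cells in the Il18rap value was not tested.

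**Figure D3:**
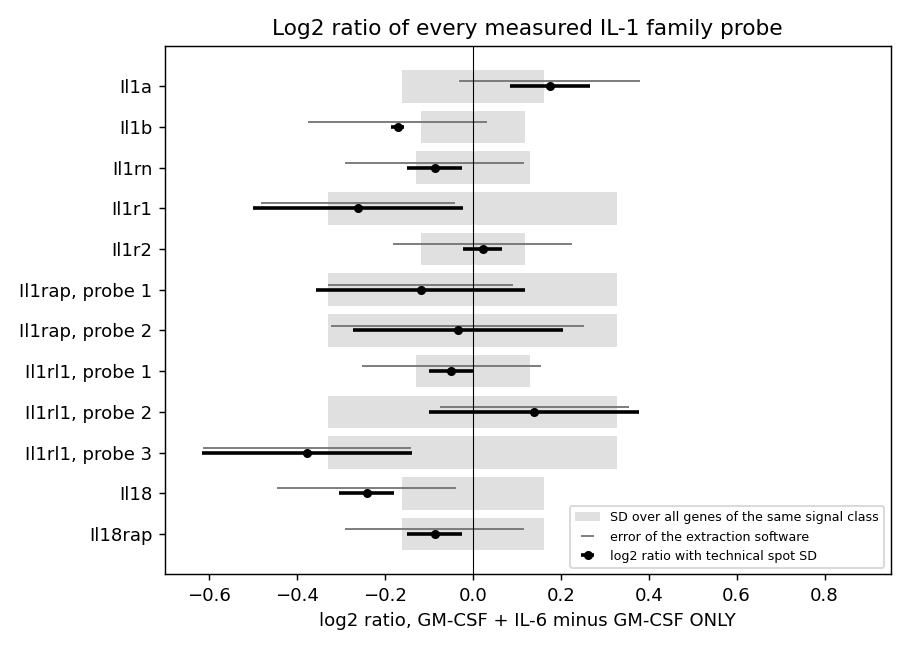
Log2 ratio of the 12 measured probes (points), with the technical spot SD (thick bars), the software error (thin bars) and the SD over all genes of the same signal class (grey blocks). The points of Il1a, Il1b, Il18 and the dimmest Il1rl1 probe lie past their grey blocks, and Il1r2 is nearest to 0.

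Set beside the spread over genes of the same signal, 3 of 9 measured members, Il1a, Il1b and Il18, lay more than 1 SD from the median of their class, and 27% of all measured genes did. That share is close to the background. Against the technical spot SD alone, 6 of the 9 exceeded 1 SD, as 56.6% of measured genes did, and 2 of them, Il1b and Il18, exceeded 2 SD, as 29.3% did.

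**Figure D4:**
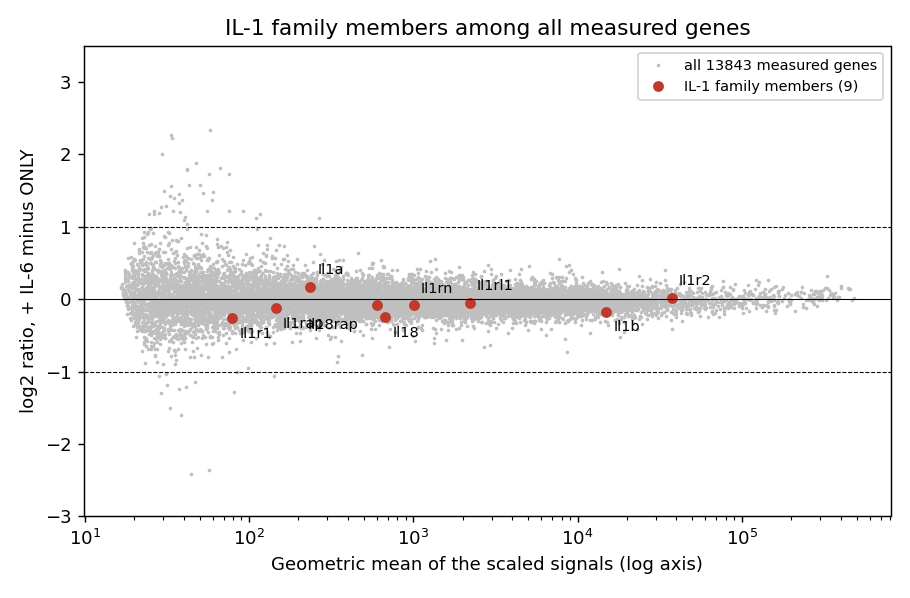
Log2 ratio against the geometric mean of both scaled signals (log axis) for all 13843 measured genes (grey) and the 9 measured family members (red), with dashed lines at 2-fold. The members lie inside the grey cloud, between -0.26 and 0.17.

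Other IL-1 family genes also lay on both sides of 0. All 11 listed had a probe and 6 were measured, 4 lower and 2 higher, where 56.2% of all measured genes were lower. The median log2 ratio of the list was -0.14 and turned to 0.09 without a filter on dim probes. Il18bp, a secreted inhibitor that binds IL-18, had a signal of 1299.9 with IL-6 and 1514 without it (log2 ratio -0.22 ± 0.06). The cytokine gene Il18 had -0.24 ± 0.06. With local medians subtracted the values were -0.20 for Il18bp and -0.17 for Il18, and the software error of each was 0.20. Il18r1, the ligand-binding IL-18 receptor chain, had 1302 against 1418 (-0.12 ± 0.06), and its other probe gave 0.16. Sigirr, a receptor that dampens IL-1 signalling, had 1272 against 1192 (0.09 ± 0.06). Il1f6, the gene of IL-36 alpha, was dim at 26.5 against 35.0 (-0.40 ± 0.24), as was the IL-36 receptor gene Il1rl2 at 45.6 against 37.2 (0.29 ± 0.24), which was -0.02 with normexp. Il1f6 was the only measured gene of this list past 0.32 in size, and with normexp it was at -0.11. Il18r1 had -0.05 with normexp.

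Genes that carry the signal from the receptors to NF-kB were nearly level. All 20 listed were measured, 11 lower and 9 higher, where 56.2% of all measured genes were lower. The log2 ratios of the list ran from -0.16 to 0.14, with a median of -0.01. Myd88, the adaptor of IL-1 and Toll-like receptors, had a log2 ratio of -0.06 ± 0.02 (0.00 with normexp) and the kinase gene Irak2 0.08 ± 0.05 (0.18 with normexp). The largest differences were -0.16 for Peli2, an E3 ligase gene, -0.16 for Tab2, a partner of the kinase TAK1, which was -0.09 with local medians subtracted, and 0.14 for the ubiquitin-conjugating enzyme gene Ube2n, whose other probe gave -0.25. Ube2v1, which pairs with UBE2N, had -0.13 and other probes of 0.10 and 0.15.

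Genes of cytokine maturation and release lay on both sides of 0. Of 12 listed 11 were measured, 6 lower and 5 higher, where 56.2% of all measured genes were lower. The median log2 ratio of the list was -0.03. Casp4, the sensor of cytosolic lipopolysaccharide, was 1.23-fold lower (6674 against 8221, log2 ratio -0.30 ± 0.05), and its other probe gave -0.29. Casp1, which cuts the precursors of IL-1 beta and IL-18, had 6358 against 7088 (-0.16 ± 0.05, and -0.10 with normexp). Nlrp3, an inflammasome sensor, was 1.20-fold higher (579.7 against 485, 0.26 ± 0.09), with 0.05 on its other probe. The adaptor gene Pycard had -0.05, which turned to 0.13 with normexp. The neutrophil protease genes Elane and Ctsg, whose products can also cut IL-1 family precursors, had log2 ratios of 0.09 and 0.01. With normexp Elane was at 0.02, and Ctsg was below 0 in 3 other settings.

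Genes that IL-1 is known to induce through NF-kB were lower in 15 of 21 measured members and higher in 6. Among all measured genes 56.2% were lower and 43.8% higher. The median log2 ratio of this list was -0.10, against -0.02 for all measured genes. Tnf stood apart as 1.39-fold higher with IL-6 (3379 against 2429.8, log2 ratio 0.48 ± 0.02) and was the only 1 of the 21 past 0.32 in size. Acod1, the itaconate-producing enzyme gene, had 5936 against 7142 (-0.27 ± 0.01), and Zc3h12a, an RNase that degrades cytokine mRNAs, had 483 against 567 (-0.23 ± 0.09). Among the brightest probes of this list, Lcn2, an iron-scavenging granule protein gene, was at 0.12, the NF-kB inhibitor gene Nfkbia at -0.06 (-0.10 with normexp and -0.03 with local medians subtracted) and the superoxide dismutase gene Sod2 at -0.10. Tnf and Il1b, both NF-kB targets of myeloid cells, therefore had log2 ratios of opposite sign in these cultures. The software error was 0.20 for each, and the Il1b ratio of -0.17 lay within it.

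**Figure D5:**
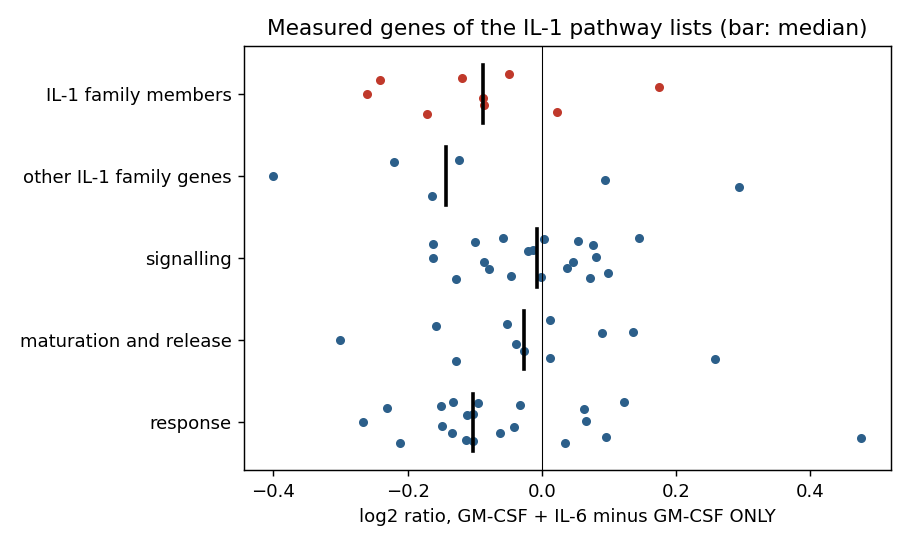
Log2 ratio of every measured gene in the IL-1 family (9 genes) and in the lists of other family genes (6), signalling (20), maturation and release (11) and response genes (21), with a bar at each median. Medians lie between -0.14 and -0.01, and the rightmost point is Tnf at 0.48; the vertical scatter has no meaning.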

How the data were processed

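Total RNA of 2 cultures, 1 per treatment in the labels, was labelled with Cy3 and hybridised to 1-colour Agilent arrays, per the labels' protocols. Per the file headers, the authors read the spots with Agilent Feature Extraction 10.7.1.1 and kept its spatial and multiplicative detrending, with no further background correction. The deposited processed intensity, not scaled between arrays, was the value used (75th percentiles 486 with IL-6 and 549.7 without). A series matrix of log2 values was deposited too. Its columns gave r = 0.99998 with the log2 intensities of their own arrays and both had a median of 5.10, so they are on a log2 scale, not centred per gene, and run in the direction of the labels. Their normalization step is not stated in the labels or headers.

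Log2 processed intensity minus the 75th percentile over 59305 non-control spots was taken, without outlier spots, and averaged over the spots of each probe. A probe was measured when at least 50% of its spots were well above background on both arrays. Each gene took its brightest measured probe. RefSeq accessions stood on 28109 probes, and 26577 of them matched 1 symbol in a RefSeq table of GRCm38.p6. The technical SD comes from 266 probes with at least 5 usable spots, pooled in 5 bins by signal (0.05 to 0.24). The software error combines the relative errors of both arrays.

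No test was possible, and the sizes used, 0.32 on the log2 scale and 2-fold, are descriptions. The members and lists were chosen with earlier results of these data known. Named genes were all members with every probe, and of each pathway list the 3 largest log2 ratios and the 3 highest signals. Tables of all genes were tested on simulated data. Alternatives were median centring, quantile normalization, cyclic loess, normexp with an offset of 50, the authors' matrix, outlier spots kept, no, stricter or looser filters on dim probes, the median over probes, and subtraction of the median over spots within 8 rows and 6 columns. The tools were R 4.3.3 with limma 3.58.1, and Python 3.11.15 with pandas 2.3.3, numpy 2.4.6 and matplotlib 3.10.9.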

Additional observations from a re-analysis of the deposited data

How the results depend on the processing

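Over 12 settings, the family median stayed between -0.11 and -0.07, 0 members reached 0.32 in size or 2-fold, and every measured member kept its sign in each setting that measured it, except Il1r2. The median of all genes shifted by at most 0.04. With local medians subtracted 8 members were lower and 1 higher (Il1a). Among recomputed log2 ratios of member probes, 121 moved by less than the technical SD and 3 by more. Part of the 121 are unchanged values. Keeping outlier spots and changing the filters on dim probes altered no member value. The median over probes could alter only members with several probes. The median of other IL-1 family genes was -0.0802 with normexp, -0.0716 with the median over probes and 0.0936 without a filter on dim probes, which adds 5 genes below background. Among named pathway genes, normexp turned Il1rl2 to -0.0235, Myd88 to 0.000794 and Pycard to 0.130, and the median over probes turned Il18r1 to 0.0209, Ube2n to -0.0512 and Ube2v1 to 0.0997, the probes of these 3 genes having opposite signs. Ctsg, at 0.01, was -0.0293 with quantile normalization, -0.0336 in the authors' matrix and -0.0351 with local medians subtracted. The cause of the other turns was not tested. The numbers of all genes past a given fold depended on dim probes. At 0.32 on the log2 scale, 132 were lower and 211 higher with normexp, 1547 and 1764 without a filter, 143 and 129 with the stricter filter, and 1129 and 1236 with the looser call. At 2-fold the numbers were 0 and 1 with normexp, 341 and 510 without a filter, 0 and 1 with the stricter filter, and 164 and 254 with the looser call. Low signal limits Il1r1, Il1rap and the dim Il1rl1 probes. No paired analysis was possible because there was just 1 array for each treatment.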

Other observations

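Several family genes lie close together, by their order in RefSeq's table of GRCm38.p6. On chromosome 1, with at most 1 other listed gene between neighbours, the receptor genes follow in the order Il1r2, Il1r1, Il1rl2, Il1rl1, Il18r1 and Il18rap, with log2 ratios of 0.02, -0.26, 0.29, -0.05, -0.12 and -0.09, so both signs occurred along the cluster. The signs of Il1r2, Il1rl2 and Il18r1 turned in 1 other setting each. On chromosome 2 the ligand genes Il1f9 (IL-36 gamma) and Il1f6 had -0.16 and -0.40 and the nearby Il1rn -0.09. Il1a at 0.17 and Il1b at -0.17 lie far from these, after 2122 other listed genes, and have 2 between them. Il1a was the only measured ligand gene of chromosome 2 above 0.

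Dendritic cell markers were lower in 6 of 6 measured genes, against 56.2% of all measured genes. Their median log2 ratio was -0.20 (-0.14 to -0.21 over the settings). Among them Ccr7, the receptor that guides migration to lymph nodes, had a signal of 23982 with IL-6 and 28859 without it (log2 ratio -0.27 ± 0.05). Cd209a and Zbtb46 were dim, at 58.9 against 69.6 (-0.24 ± 0.24) and 54.2 against 68.8 (-0.34 ± 0.24). Markers of group 2 innate lymphoid cells, which carry ST2, were measured in 5 of 8 genes, 3 lower and 2 higher, and Areg, Il5 and Klrg1 were not well above background on either array.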
